A study of Amolops torrentis with 15 samples.

Results

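Glycolysis and fructose metabolism was followed across the whole brain of female torrent frogs (Amolops torrentis) through 57 of the 44351 assembled features in the expression table. A feature is a cluster of assembled transcripts, which stands for a gene or a part of one. Members were chosen by name: the closest Swiss-Prot entry of the feature had to begin with the name of a glycolytic enzyme, of ketohexokinase, of a pyruvate enzyme, of lactate dehydrogenase or of an enzyme whose name starts with "Aldo". No expression value entered that rule. The 57 features carried 30 different gene or protein names, of which 15 stood on a single feature and 15 on several.

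Glycolysis splits glucose into pyruvate and yields ATP, and brain tissue depends on it together with the mitochondria that take up the pyruvate. Hexokinase traps glucose, phosphofructokinase sets the pace, and lactate dehydrogenase interconverts pyruvate and lactate. Fructose enters by a side branch: aldose reductase starts the polyol route that can make fructose from glucose, and ketohexokinase (Khk) phosphorylates fructose, so this branch bypasses the phosphofructokinase step.

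The study exposed frogs to sexual cues in different senses and sequenced brain RNA with paired reads of 150 bases. Its 5 groups of 3 libraries are labelled by stimulus as audiovisual, acoustic, visual, dark contrast and blank contrast, and all are of whole brain. The labels give no age, do not say what animals of either contrast group saw or heard, and do not say whether a library is 1 frog or a pool. The p-values therefore set differences between groups against the spread between these libraries, whatever its source.

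Libraries held 12071194 to 16829356 estimated counts, with a median of 14157432. Dark contrast libraries averaged 12790851 and audiovisual libraries 15593468, and counts were scaled by library size and by TMM factors (trimmed mean of M values). Neuronal markers (5 of 6 listed genes found) summed to 2295 to 2742 FPKM, and oligodendrocyte markers (3 of 5) to 2014 to 3460 FPKM, in every library, so the labelled tissue carried its defining transcripts. Astrocyte and radial glia markers (4 of 7) summed to 1066 to 1868 FPKM, blood (2 of 7) to 909 to 3951 FPKM, liver (transferrin only) to 62.2 to 809 FPKM, muscle (1 of 9) to 0.60 to 17.8 FPKM, choroid plexus (1 of 5) to 1.85 to 8.12 FPKM and fibroblasts (4 of 5) to 6.65 to 24.2 FPKM. None of 6 microglial and 5 retinal markers was matched by name, and the table lists only features with at least 0.31 FPKM in every library. The 2 matched pituitary markers, POMC and CGA, ranged from 29.4 to 6963 FPKM under audiovisual, 144 to 979 under acoustic and 18.7 to 69.6 under visual stimuli, 204 to 2602 under dark contrast and 21.6 to 39.8 under blank contrast. Their part in any result was not tested. In whole tissue, fewer cells of a type and less RNA per cell cannot be told apart.

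The pathway as a whole stood at a similar level in all groups. The members together took 1.28% to 1.45% of the counts of a library. Their summed FPKM (fragments scaled by transcript length and library depth) was 9744 ± 673 under audiovisual, 9966 ± 581 under acoustic and 9907 ± 317 under visual stimuli, 9955 ± 384 under dark contrast and 9401 ± 676 under blank contrast (SD, n = 3 each). The ranges of the groups overlapped. GAPDH, the enzyme that makes the first NADH of glycolysis, supplied 34.2% of this sum.

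Levels of single steps lay between 1.85 and 3346 on the FPKM scale. GAPDH averaged 3346 FPKM, aldolase 1987 FPKM over 6 features, pyruvate kinase 830 FPKM over 7 features, triosephosphate isomerase 781 FPKM and enolase 724 FPKM. Lactate dehydrogenase averaged 687 FPKM and phosphoglycerate kinase 317 FPKM. Phosphoglycerate mutase averaged 179.6 FPKM. Of the early steps, the averages were 224 FPKM for glucose-6-phosphate isomerase, 197 FPKM for phosphofructokinase over 8 features and 87.7 FPKM for hexokinase. The fructose branch was lower again, with 48.0 FPKM for aldose reductase and 6.02 FPKM for ketohexokinase. The gluconeogenic enzyme fructose-1,6-bisphosphatase averaged 1.85 FPKM. Of the single features, 19 averaged at least 100 FPKM, 17 between 10 and 100 FPKM, and 21 under 10 FPKM.

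**Figure D1:**
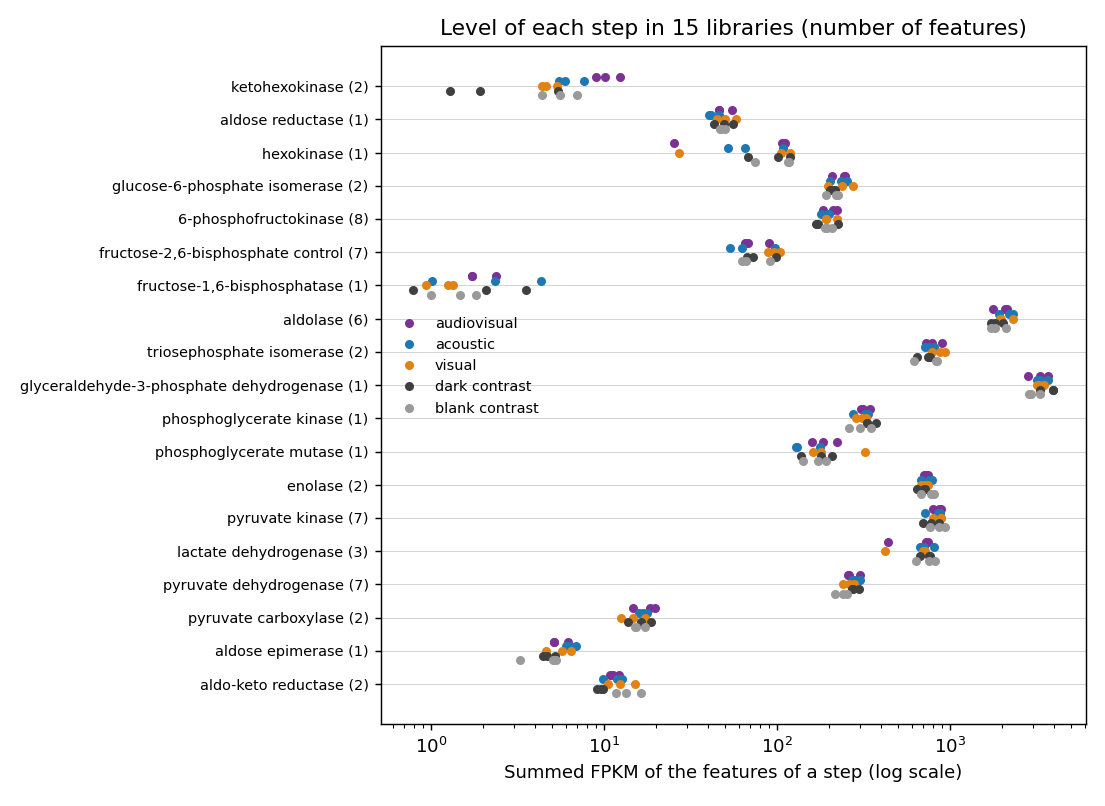
Summed FPKM (log axis) of the features of each enzyme step, with 1 point per library coloured by stimulus group and the number of features in brackets. Most steps stay within a narrower band across the 15 libraries than the following. Ketohexokinase runs between 1.29 and 12.3 FPKM, fructose-1,6-bisphosphatase between 0.79 and 4.33 FPKM and hexokinase between 25.5 and 119 FPKM.

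With edgeR on all libraries, no member passed the threshold of an adjusted p under 0.05. Its quasi-likelihood test, with Benjamini-Hochberg adjustment over the 42619 features that averaged at least 1 FPKM, called 0 of the 56 members tested in the F test over the 5 groups and 0 in each of the 10 pairs. It called 0% of all features in each of these tests as well. DESeq2 called 1 member, Khk, in its likelihood ratio test over the 5 groups and in the 4 pairs that include dark contrast. Of all features it called 206 in that likelihood ratio test. It called 30, 35 and 36 of all features for audiovisual, acoustic and visual against dark contrast, and 38 for dark contrast against blank contrast. With limma on log2 FPKM, 0 members were called. The remaining member, the third of the PDHA1 features, averaged 0.96 FPKM and was not tested. In the F test 6 members (10.7%) had an unadjusted p under 0.05, against 4.74% of all features. With 56 members these shares rest on a handful of features.

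Against dark contrast, unadjusted p values under 0.05 were found for 5 members (8.93%) in audiovisual brains, where all features gave 5.23%. They were found for 5 members (8.93%) in acoustic brains, against 5.11% of all features, and for 6 (10.7%) in visual brains, against 5.3%. These 3 comparisons share the dark contrast libraries and are not independent. Against blank contrast the counts were 2 members (3.57%) for audiovisual, 4 (7.14%) for acoustic and 2 (3.57%) for visual brains, against 4.54%, 4.42% and 4.66% of all features. Between stimuli they were 3 members (5.36%) for audiovisual against acoustic, 2 (3.57%) for audiovisual against visual and 4 (7.14%) for acoustic against visual, where all features gave 4.9%, 4.57% and 5.01%. Most of these shares lay near the background.

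Dark contrast against blank contrast held the most such members, 9 of 56 (16.1%) against 5.68% of all features. In that pair 4 of the 9 were higher and 5 lower in dark contrast, against 2.79% and 2.89% of all features. The median log2 fold change of the members was -0.06 there. It was 0.10 for audiovisual, 0.04 for acoustic and 0.16 for visual brains against dark contrast, where the medians of all features were -0.0036, 0.0052 and -0.0024. Khk had the highest log2 fold change of the members for audiovisual and for acoustic brains against dark contrast, and the lowest for dark contrast against blank contrast.

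**Figure D2:**
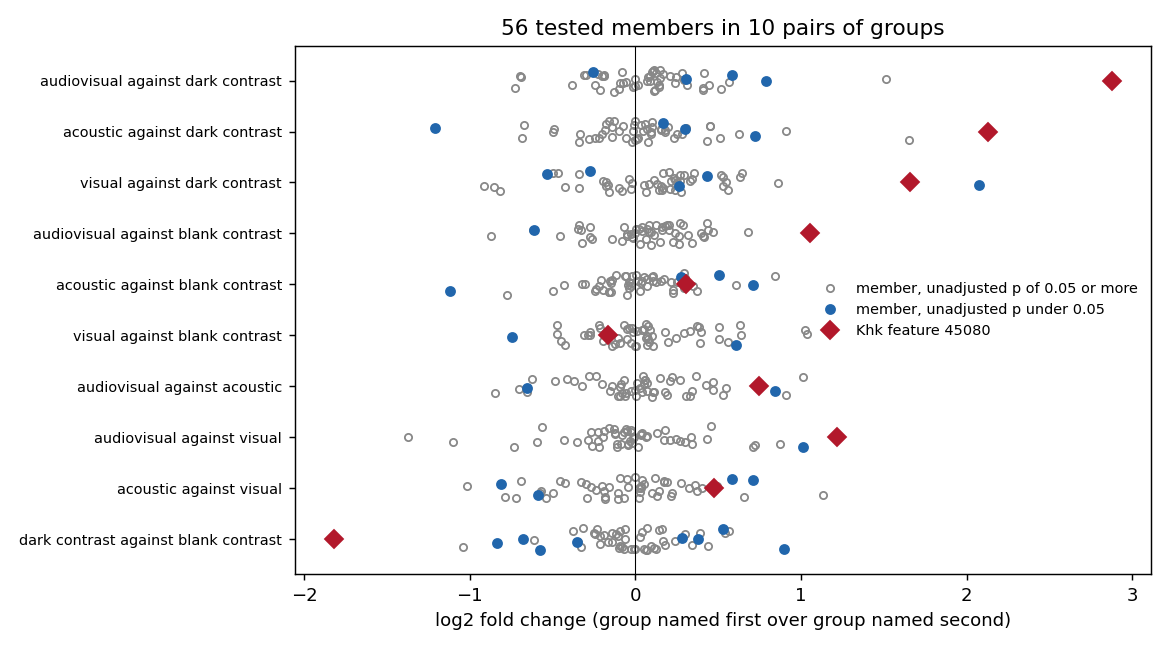
log2 fold changes of the 56 tested members (x axis) in the 10 pairs of groups (y axis), with filled circles for unadjusted p under 0.05 and a diamond for the more abundant Khk feature. Khk lies at 2.88 for audiovisual against dark contrast and at -1.82 for dark contrast against blank contrast, while most other members lie close to 0.

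Khk, the enzyme that commits fructose to metabolism, had the smallest p of the members in the F test (unadjusted p = 4.84e-05, adjusted p = 0.782). Its more abundant feature (Cluster-46846.45080) had 13.8, 10.8 and 7.47 CPM under audiovisual stimuli, 3.72, 6.10 and 9.29 under acoustic, 4.63, 4.88 and 4.25 under visual, 1.35, 1.38 and 1.62 under dark contrast, and 6.67, 3.40 and 5.38 under blank contrast. CPM here are counts scaled by TMM to a common library size. All 3 dark contrast libraries lay below every other library, and the audiovisual libraries lay above all visual and blank contrast libraries but overlapped the acoustic ones.

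The feature averaged 10.7 ± 3.15 CPM under audiovisual stimuli and 1.45 ± 0.149 CPM under dark contrast (SD, n = 3 each), a ratio of means of 7.38 (a log2 fold change of 2.88 with an SE of 0.37, unadjusted p = 2.15e-06, adjusted p = 0.0917). By p it ranked 1 of the 42619 features in that comparison, yet missed the threshold. The acoustic mean was 6.37 ± 2.79 CPM, 4.40 times that of dark contrast (a log2 fold change of 2.13 with an SE of 0.37, unadjusted p = 4.83e-05, adjusted p = 0.687). In visual brains the mean was 4.59 ± 0.317 CPM, 3.16 times that of dark contrast (a log2 fold change of 1.66 with an SE of 0.37, unadjusted p = 0.000505, adjusted p = 0.803). None of these differences passed the adjusted threshold.

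Dark contrast stood apart from the other contrast group too. Its mean of 1.45 ± 0.149 CPM was 0.281 times the blank contrast mean of 5.15 ± 1.65 CPM (a log2 fold change of -1.82 with an SE of 0.37, unadjusted p = 0.000218, adjusted p = 0.709). Audiovisual brains were above blank contrast by a ratio of 2.08 (a log2 fold change of 1.05 with an SE of 0.34, unadjusted p = 0.00775, adjusted p = 0.999818) and above visual brains by a log2 fold change of 1.22 (SE 0.34, unadjusted p = 0.00306). Acoustic and visual brains overlapped blank contrast, with log2 fold changes of 0.31 and -0.17. In order of mean level the groups ran dark contrast, visual, blank contrast, acoustic, audiovisual. Of the neighbours in that order, dark contrast and visual did not overlap, whereas visual and blank contrast, blank contrast and acoustic, and acoustic and audiovisual overlapped.

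The depth behind these values was modest. In dark contrast brains the feature held 15.5, 20.1 and 20.4 estimated counts. Khk was picked out for description with results of these data known, so its rank is not independent evidence.

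A second Khk feature (Cluster-46846.222723), also 1425 bases long, had a different pattern. It had 2.52, 2.35 and 4.30 CPM under audiovisual stimuli, 3.52, 1.74 and 1.02 under acoustic, 2.29, 0.851 and 1.84 under visual, 0.422, 5.58 and 0.810 under dark contrast, and 2.40, 2.55 and 2.02 under blank contrast. Dark contrast library 2 had the highest value of all libraries and dark contrast library 1 the lowest. For audiovisual against dark contrast its log2 fold change was 0.41 (SE 0.70, unadjusted p = 0.574), and no pair gave an unadjusted p under 0.05. The best match of the first feature in the NR protein database was a turtle ketohexokinase, and that of the second a coelacanth one. Whether they are separate genes, alleles or transcript forms of 1 gene was not tested.

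Adding both Khk features gave a different separation of groups. The first feature took 84.5%, 82.2% and 63.3% of the Khk counts in audiovisual brains, and 74.99%, 19.96% and 66.7% in dark contrast brains, with a median of 73.0% over all libraries. The sum of both features was 16.3, 13.2 and 11.8 CPM under audiovisual stimuli, 7.24, 7.84 and 10.3 under acoustic, 6.92, 5.73 and 6.09 under visual, 1.77, 6.96 and 2.43 under dark contrast, and 9.08, 5.96 and 7.39 under blank contrast. Audiovisual libraries lay above every library of the other groups. Dark contrast library 2, at 6.96 CPM, lay just above all visual libraries and within the range of the blank contrast ones.

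On the summed counts audiovisual brains averaged 13.8 ± 2.31 CPM and dark contrast brains 3.72 ± 2.82 CPM, a ratio of 3.70. The edgeR test on sums per gene name gave a log2 fold change of 1.87 (SE 0.39, unadjusted p = 0.000271, adjusted p = 0.731). For dark contrast against blank contrast the sum gave -0.99 (SE 0.39, unadjusted p = 0.0232, adjusted p = 0.869), with overlapping groups. For visual against dark contrast it gave 0.74 (unadjusted p = 0.0781), with overlapping groups. For acoustic against dark contrast it gave 1.17 (SE 0.39, unadjusted p = 0.0092, adjusted p = 0.965), without overlap. With each library left out in turn, a set of fits added after the data were seen, the sum passed for audiovisual against dark contrast only without dark contrast library 2 (adjusted p = 0.0188), and the adjusted p was 0.667 to 0.983 without any other library of these groups. Dark contrast library 2 has the highest Khk sum of its group, so leaving it out selects on the value tested and is no support for a difference. The separation of dark contrast from all other groups thus held for the first feature and not for the sum, where visual and blank contrast overlapped dark contrast.

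**Figure D3:**
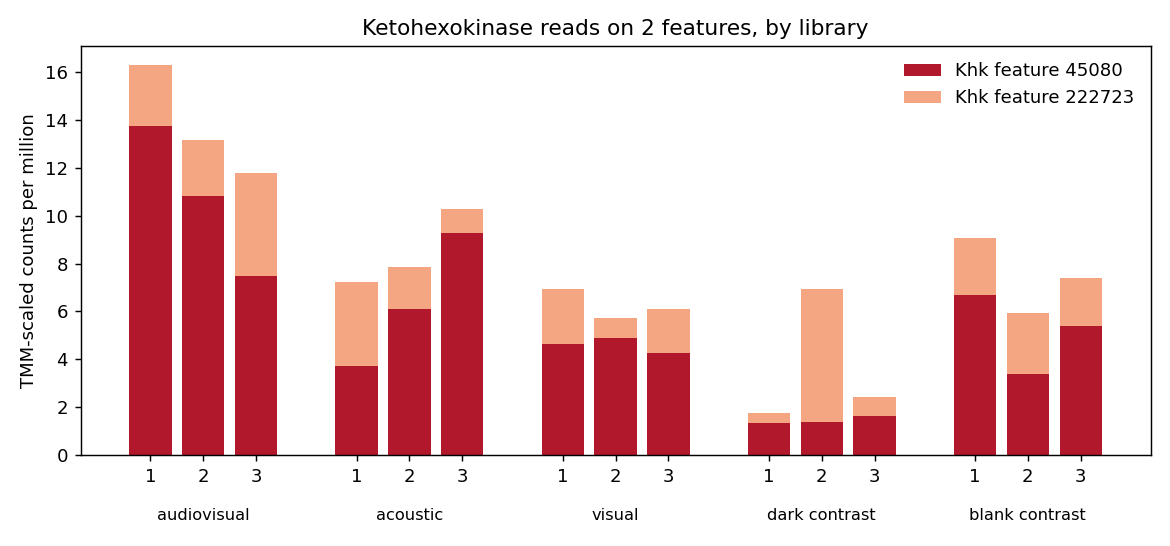
TMM-scaled CPM of both Khk features, stacked, in each of the 15 libraries. Dark contrast libraries 1 and 3 have the lowest stacks (1.77 and 2.43 CPM), whereas dark contrast library 2 reaches 6.96 CPM through the second feature.

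The call on Khk also turned on the test. DESeq2 called the first feature for audiovisual against dark contrast (adjusted p = 1.31e-08), and limma on log2(FPKM + 1) did not (adjusted p = 0.0686). With edgeR it was called when audiovisual library 3 was left out (adjusted p = 0.0483), and the adjusted p without any other single library of these 2 groups was between 0.0823 and 0.411. Audiovisual library 3 has the lowest value of this feature in its group (7.47 CPM). Leaving it out selects on the value tested and is no support for a difference. Over all alternatives, sums per gene name included, the log2 fold change stayed between 1.55 and 3.08 and the adjusted p between 1.31e-08 and 0.983.

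Aldose reductase did not share this pattern. AKR1B1, the aldose reductase that reduces glucose to sorbitol, had 61.9, 60.3 and 72.6 CPM under audiovisual stimuli, 55.5, 53.6 and 62.8 under acoustic, 65.96, 59.1 and 77.4 under visual, 75.5, 63.5 and 56.6 under dark contrast, and 60.97, 64.6 and 65.9 under blank contrast. All groups overlapped.

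GALM, the aldose epimerase that interconverts forms of glucose, had 8.68, 8.55 and 10.5 CPM under audiovisual stimuli, 10.2, 11.5 and 10.98 under acoustic, 7.74, 9.60 and 10.9 under visual, 8.01, 8.54 and 7.37 under dark contrast, and 5.43, 8.72 and 8.89 under blank contrast. Acoustic brains lay above blank contrast brains without overlap (a log2 fold change of 0.50 with an SE of 0.22, unadjusted p = 0.0370, adjusted p = 0.999956). They also lay above all dark contrast libraries, at a log2 fold change of 0.45 (unadjusted p = 0.0587, adjusted p = 0.973). The 2 members that entered only through the name aldo-keto reductase belong to a family that acts on steroids and prostaglandins in mammals. The more abundant, PGFS, had 48.1, 53.6 and 53.6 CPM under audiovisual stimuli, 54.4, 50.2 and 44.5 under acoustic, 47.2, 65.9 and 56.01 under visual, 37.5, 43.3 and 44.4 under dark contrast, and 60.1, 74.6 and 51.8 under blank contrast. All dark contrast libraries were below every library of the other groups, narrowly so for acoustic library 3 (44.4 against 44.5 CPM). Dark contrast against blank contrast gave a log2 fold change of -0.58 with an SE of 0.16 (unadjusted p = 0.00321, adjusted p = 0.829). Visual against dark contrast gave a log2 fold change of 0.43 with an SE of 0.16 (unadjusted p = 0.0179, adjusted p = 0.914).

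At the entry of glucose, HK1, the hexokinase that binds mitochondria in brain, varied widely between libraries. It had 519.7, 117 and 496 CPM under audiovisual stimuli, 305, 237 and 509.7 under acoustic, 488, 126 and 558 under visual, 474, 538 and 312 under dark contrast, and 526, 353 and 539 under blank contrast. Audiovisual library 2 and visual library 2 were the lowest, and neither group was low as a whole. GPI, which converts glucose-6-phosphate to fructose-6-phosphate, varied much less. Its longer feature had 483, 428 and 363 CPM under audiovisual stimuli, 409.7, 418 and 440.2 under acoustic, 412, 382 and 445 under visual, 346, 337 and 347 under dark contrast, and 341, 420.3 and 416 under blank contrast. The dark contrast libraries were nearly alike and lay below every audiovisual, acoustic and visual library, whereas blank contrast library 1 lay within their range.

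For the longer GPI feature the differences were small. Audiovisual brains averaged 425 ± 60.01 CPM and dark contrast brains 344 ± 5.37 CPM (a log2 fold change of 0.31 with an SE of 0.11, unadjusted p = 0.0179, adjusted p = 0.934). Acoustic against dark contrast gave 0.30 and visual against dark contrast 0.27 on the log2 scale, with unadjusted p values of 0.0203 and 0.0353. The shorter Gpi feature went the other way, at -0.22 for audiovisual and -0.22 for acoustic against dark contrast. In the edgeR test on sums per gene name, GPI gave 0.24 for audiovisual, 0.23 for acoustic and 0.23 for visual against dark contrast. The unadjusted p values were 0.0426, 0.0537 and 0.0519. Log2 CPM of the longer feature had a Pearson r of 0.667 with the first Khk feature over the 15 libraries, the second highest of the members after PFKM (0.681). This is a description only, since the libraries share groups and scaling.

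Phosphofructokinase, the pacing step, rested on PFKP, the platelet type that brain also uses, at 159 FPKM. PFKP had 634, 596 and 551 CPM under audiovisual stimuli, 517, 549.9 and 577 under acoustic, 636, 532 and 532 under visual, 498, 639 and 492 under dark contrast, and 543, 618 and 539.7 under blank contrast. All groups overlapped. The larger PFKM feature, the muscle type, gave a log2 fold change of 0.79 for audiovisual against dark contrast (SE 0.31, unadjusted p = 0.0250, adjusted p = 0.935). Its audiovisual libraries had 62.3, 73.2 and 49.2 CPM and its dark contrast libraries 49.7, 25.004 and 32.3 CPM. These overlapped by dark contrast library 1. A second PFKM feature (Cluster-46846.170466) went the other way, also with overlap. It averaged 24.0 ± 21.6 CPM in dark contrast, above the 14.5 ± 9.92 CPM of audiovisual brains. Over the 15 libraries these features had a Pearson r of -0.532. The 3 PFKM features summed to 62.9 ± 12.7 CPM in dark contrast, against 80.0 ± 15.9 CPM in audiovisual brains, and the libraries overlapped. A low feature matched to PFKL, the liver type (Cluster-46846.83258), had 5.41, 4.70 and 3.53 CPM under audiovisual stimuli, 2.03, 1.43 and 4.14 under acoustic, 3.999, 3.87 and 5.45 under visual, 2.02, 2.89 and 4.29 under dark contrast, and 5.90, 5.74 and 4.85 under blank contrast. Acoustic lay below blank contrast (a log2 fold change of -1.12 with an SE of 0.37, unadjusted p = 0.00991, adjusted p = 0.999956), but the sum over the 4 PFKL features gave 0.05 in the same pair.

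The bifunctional enzymes that make and break fructose-2,6-bisphosphate, the activator of phosphofructokinase, and the phosphatase tigar filled 7 features. The most abundant, matched to the bullfrog enzyme, had 38.6, 34.2 and 39.6 CPM under audiovisual stimuli, 33.2, 37.8 and 41.5 under acoustic, 40.6, 45.3 and 49.7 under visual, 27.99, 42.9 and 41.7 under dark contrast, and 29.8, 48.5 and 36.3 under blank contrast. Both PFKFB3 features, from the form induced by low oxygen in mammals, spread widely within groups, between 26.6 and 149 CPM for the more abundant and between 14.2 and 106 CPM for the other. The 2 PFKFB4 features gave unadjusted p values under 0.05 in 1 pair each, at a log2 fold change of 0.90 with an SE of 0.34, unadjusted p = 0.0192, adjusted p = 0.854 for dark contrast against blank contrast, and a log2 fold change of 0.61 with an SE of 0.25, unadjusted p = 0.0312, adjusted p = 0.999680 for visual against blank contrast. FBP1, which runs the opposite reaction, had 2.33, 2.28 and 3.17 CPM under audiovisual stimuli, 1.35, 3.11 and 5.90 under acoustic, 1.78, 1.24 and 1.68 under visual, 4.81, 1.03 and 2.76 under dark contrast, and 1.32, 2.48 and 1.94 under blank contrast. No pair reached an unadjusted p under 0.05.

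Swiss-Prot named 5 features as aldolase C, the brain form of the enzyme that splits fructose-1,6-bisphosphate. The most abundant per length had 490.3, 536 and 419.8 CPM under audiovisual stimuli, 436, 671 and 648 under acoustic, 485, 631 and 421 under visual, 448, 407 and 447 under dark contrast, and 417, 615 and 326 under blank contrast. Groups overlapped. Of the others, a pair singled out after its values were seen traded places between libraries. The closest NR match of both was a turtle aldolase A, so which aldolase they stand for is not settled. Cluster-46846.154084 had 335, 662 and 518 CPM under audiovisual stimuli, 466, 522 and 241 under acoustic, 296, 172 and 654 under visual, 814, 646 and 514 under dark contrast, and 574, 257 and 525 under blank contrast. Cluster-46846.162853 had 496, 103 and 133 CPM under audiovisual stimuli, 237, 104 and 465 under acoustic, 423, 606 and 52.5 under visual, 89.9, 54.1 and 113 under dark contrast, and 50.03, 416 and 62.1 under blank contrast. Libraries high in one were low in the other, with a Pearson r of -0.891 and a Spearman rho of -0.875 over 15 libraries, and -0.857 for r without acoustic 3 and visual 2.

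Within groups the coefficients of variation of these features, named ALDOC by Swiss-Prot, were 39.3% and 77.7%, and that of their sum was 10.03%. The low spread of the sum goes with the negative r for which the pair was picked, and is not separate evidence. The sum stayed between 587 and 904 CPM in all libraries. The lower feature gave an unadjusted p of 0.0456 for visual against dark contrast, at a log2 fold change of 2.07, while visual library 3 lay below all dark contrast libraries. The sum averaged 735 ± 38.4 CPM in visual and 744 ± 143 CPM in dark contrast brains.

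The 15 names on several features covered 42 features, with a median within-group coefficient of variation of 27.4%, against 15.4% for their sums. The enolase features, matched to alpha-enolase, had a Pearson r of -0.629 with each other, and their sum had a coefficient of variation of 5.49%, against 12.5% and 16.3% apart. Across all 57 members the within-group coefficient of variation had a median of 22.9%, with 19 under 15% and 13 at 40% or more.

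In the middle of the pathway the values were steady. For tpi1, triosephosphate isomerase, the more abundant feature per length had 100.1, 124 and 109.8 CPM under audiovisual stimuli, 94.5, 114 and 110.03 under acoustic, 130.4, 121 and 109 under visual, 104, 103 and 90.6 under dark contrast, and 114, 126 and 74.6 under blank contrast. Visual brains lay above dark contrast, and all other pairs overlapped. GAPDH had 3689.7, 4058 and 3125 CPM under audiovisual stimuli, 3676, 4082 and 3605 under acoustic, 3587, 3491 and 3871 under visual, 4512, 3598 and 4299 under dark contrast, and 3127, 3793 and 3268 under blank contrast. Dark contrast averaged 4136 ± 478 CPM and blank contrast 3396 ± 351 CPM, and these overlapped (a log2 fold change of 0.28 with an SE of 0.11, unadjusted p = 0.0223, adjusted p = 0.854).

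PGK1, the phosphoglycerate kinase that makes the first ATP, had 665, 595 and 591 CPM under audiovisual stimuli, 528, 611 and 655 under acoustic, 544, 623 and 596 under visual, 651, 698 and 627 under dark contrast, and 491, 591 and 667 under blank contrast. Dark contrast lay above visual brains, and all other pairs overlapped. PGAM1, phosphoglycerate mutase, had 262, 184 and 216 CPM under audiovisual stimuli, 151, 152 and 212 under acoustic, 209.6, 376 and 189.7 under visual, 165, 205 and 241 under dark contrast, and 199, 230.4 and 165 under blank contrast. Visual library 2 was the highest, and acoustic against visual gave a log2 fold change of -0.59 with an SE of 0.25, unadjusted p = 0.0325, adjusted p = 0.993. The larger enolase feature had 927, 955 and 843 CPM under audiovisual stimuli, 954, 929.7 and 790.0 under acoustic, 787, 1019 and 1071 under visual, 1057, 829.96 and 697 under dark contrast, and 992, 1115 and 1191 under blank contrast. Dark contrast against blank contrast gave a log2 fold change of -0.35 with an SE of 0.15, unadjusted p = 0.0340, adjusted p = 0.863, whereas the enolase sum averaged 1613 ± 35.7 CPM under dark contrast and 1804 ± 192 CPM under blank contrast.

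Pyruvate kinase, which makes pyruvate and ATP, was steady in its most abundant feature. This pkm feature had 563, 538 and 459 CPM under audiovisual stimuli, 495, 488 and 504 under acoustic, 524, 532 and 532 under visual, 489, 428 and 495 under dark contrast, and 475, 574 and 469 under blank contrast. Visual brains lay above acoustic and dark contrast brains, and no pair gave an unadjusted p under 0.05. A lower feature named pkm, whose closest NR match was the liver and red cell form PKLR (Cluster-46846.163014), varied more by group. It had 71.9, 83.3 and 65.3 CPM under audiovisual stimuli, 45.2, 53.8 and 64.8 under acoustic, 37.3, 36.3 and 35.9 under visual, 40.7, 73.7 and 32.8 under dark contrast, and 50.7, 75.2 and 57.6 under blank contrast. All 3 visual libraries were nearly alike and lay below all audiovisual, acoustic and blank contrast libraries, but overlapped dark contrast, where library 3 was lower.

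For this feature audiovisual brains averaged 73.5 ± 9.08 CPM and visual brains 36.5 ± 0.740 CPM (a log2 fold change of 1.01 with an SE of 0.25, unadjusted p = 0.00141, adjusted p = 0.999696). Visual against blank contrast gave a log2 fold change of -0.74 with an SE of 0.25, unadjusted p = 0.0109, adjusted p = 0.999680. The sum over the 7 pyruvate kinase features, most of which is other features, gave 0.02 for audiovisual against visual and -0.01 for visual against blank contrast on the log2 scale.

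**Figure D4:**
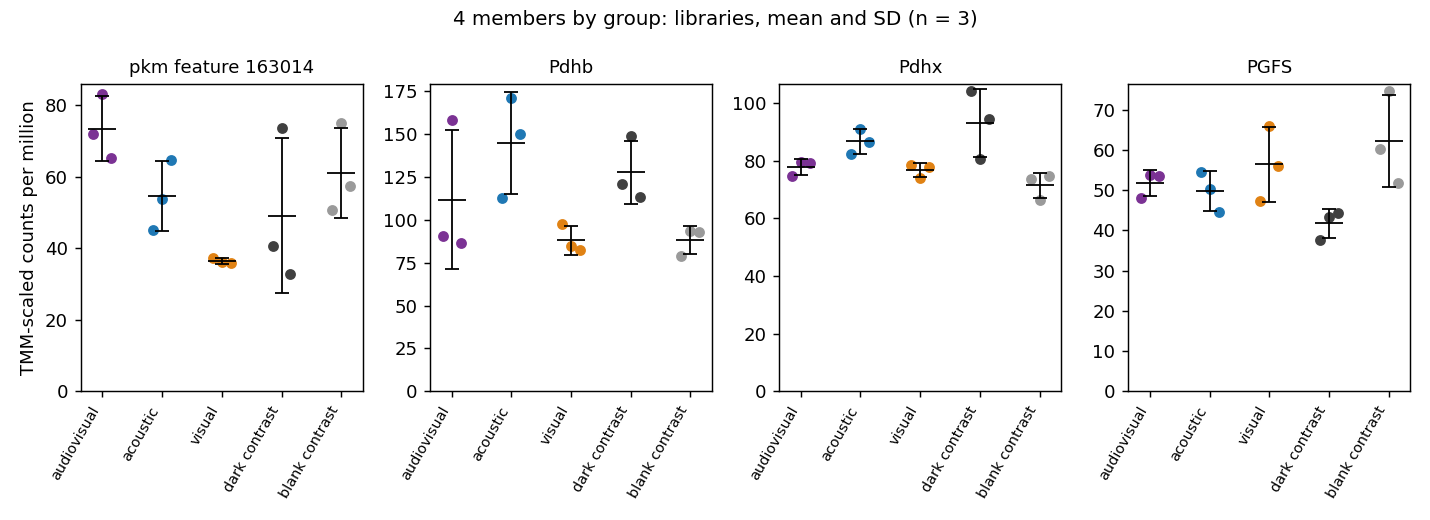
TMM-scaled CPM by stimulus group for the pkm feature matched to PKLR, Pdhb, Pdhx and PGFS, with points for libraries, a long bar for the mean and whiskers for the SD (n = 3). Visual brains form a tight low cluster for pkm (35.9 to 37.3 CPM), and dark contrast lies above blank contrast for Pdhx and below it for PGFS.

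Lactate dehydrogenase, which links pyruvate to lactate, showed differences between libraries that did not follow the stimulus. The feature annotated ldha with the highest level per length (Cluster-46846.150322), whose NR match was an LDHB-like protein, had 4.21, 435 and 366 CPM under audiovisual stimuli, 455, 395 and 600.1 under acoustic, 1.08, 541 and 378 under visual, 479, 385 and 437 under dark contrast, and 372, 423 and 442 under blank contrast. It was nearly absent from audiovisual library 1 and visual library 1 and abundant in all others. The ldhb feature (Cluster-46846.157525), singled out after its values were seen, had 251, 121 and 103 CPM under audiovisual stimuli, 123, 127 and 2.37 under acoustic, 249.7, 2.71 and 125 under visual, 130.2, 108 and 119 under dark contrast, and 116, 134 and 108 under blank contrast. It was nearly absent from acoustic library 3 and visual library 2, and highest in the libraries that nearly lacked the first feature.

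In the 11 other libraries these features kept to 366 to 479 CPM and 103 to 134 CPM. Their sum was 255 CPM in audiovisual library 1 and 251 CPM in visual library 1, against 469 to 609 CPM elsewhere. The LDHA feature (Cluster-46846.156170) did not show such gaps. It had 799, 845 and 1020.4 CPM under audiovisual stimuli, 730.4, 742 and 932 under acoustic, 745, 741 and 878 under visual, 859.9, 754 and 889 under dark contrast, and 695, 979 and 1083 under blank contrast. No lactate dehydrogenase feature reached an unadjusted p under 0.05 in any pair. Whether the gaps are alleles, transcript forms or the way reads were assigned was not tested.

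**Figure D5:**
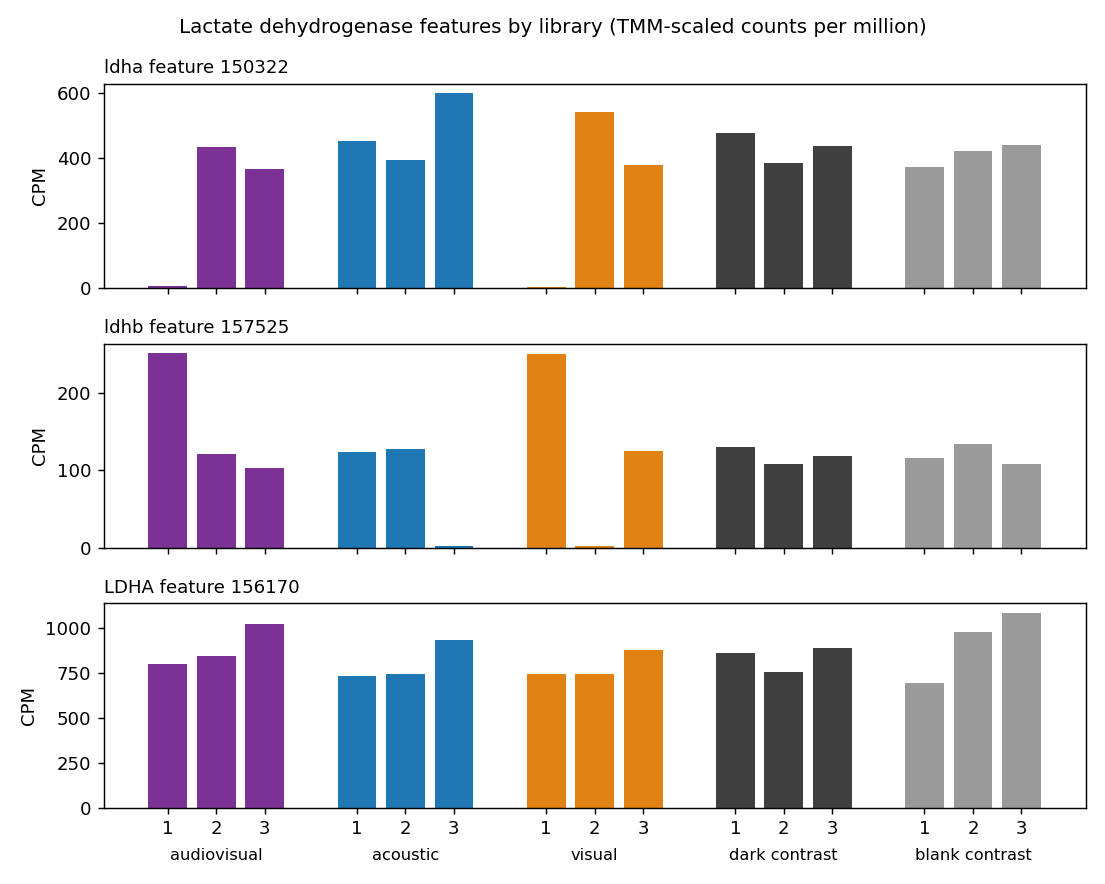
TMM-scaled CPM of the 3 lactate dehydrogenase features in the 15 libraries, with a separate y axis for each. The ldha bar nearly vanishes in audiovisual 1 and visual 1 (4.21 and 1.08 CPM) where the ldhb bar is highest, the ldhb bar nearly vanishes in acoustic 3 and visual 2, and the LDHA bar is present in all libraries.

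Pyruvate dehydrogenase carries pyruvate into the citric acid cycle. PDHA1, its catalytic alpha subunit, had 167, 189.6 and 125 CPM under audiovisual stimuli, 202, 159 and 139 under acoustic, 176, 143 and 168 under visual, 169, 169 and 162 under dark contrast, and 163, 149.5 and 145 under blank contrast. Groups overlapped. Pdhb, the beta subunit of the same enzyme, had 90.3, 158 and 86.6 CPM under audiovisual stimuli, 112, 171 and 149.9 under acoustic, 97.7, 84.6 and 82.05 under visual, 121, 148 and 113 under dark contrast, and 78.9, 93.2 and 92.7 under blank contrast. All acoustic libraries lay above all visual and all blank contrast libraries, and the audiovisual libraries overlapped both.

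For Pdhb acoustic brains averaged 144 ± 29.7 CPM, against 88.2 ± 8.10 CPM in blank contrast brains (a log2 fold change of 0.71 with an SE of 0.22, unadjusted p = 0.00587, adjusted p = 0.999956) and 88.1 ± 8.40 CPM in visual brains (a log2 fold change of 0.71 with an SE of 0.22, unadjusted p = 0.00576, adjusted p = 0.985). Dark contrast was above blank contrast as well (a log2 fold change of 0.53 with an SE of 0.22, unadjusted p = 0.0289, adjusted p = 0.861). Pdhx, which tethers the E3 subunit to the complex, had 74.6, 79.5 and 79.3 CPM under audiovisual stimuli, 82.4, 90.9 and 86.6 under acoustic, 78.5, 73.98 and 77.96 under visual, 104, 80.6 and 94.4 under dark contrast, and 73.5, 66.5 and 74.5 under blank contrast. Dark contrast lay above blank contrast without overlap (a log2 fold change of 0.38 with an SE of 0.11, unadjusted p = 0.00487, adjusted p = 0.846). So both features were higher in dark contrast than in blank contrast, whereas PDHA1 overlapped, and none passed the adjusted threshold. These differences were not limited to the contrast groups. For Pdhx, dark contrast and acoustic libraries also lay above all audiovisual and visual libraries, and acoustic libraries above all blank contrast ones. For Pdhb, all dark contrast libraries also lay above all visual ones.

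Pyruvate carboxylase refills the citric acid cycle and in brain is mostly an astrocyte enzyme. Its larger PC feature had 81.5, 48.5 and 78.3 CPM under audiovisual stimuli, 66.3, 65.6 and 62.7 under acoustic, 53.4, 56.6 and 66.02 under visual, 58.2, 71.2 and 66.9 under dark contrast, and 60.7, 61.8 and 65.3 under blank contrast. Audiovisual libraries held both the highest and the lowest value. No pair gave an unadjusted p under 0.05.

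Genes around the pathway were read from a list of 75 genes for sugar uptake, lactate transport, pyruvate entry, the pentose phosphate route, glycogen, gluconeogenesis and their regulators, of which 49 were found on 73 features and 72 features were tested. edgeR called 0 of them in every comparison. Against dark contrast the number with an unadjusted p under 0.05 was 7 (9.72%) for audiovisual, 4 (5.56%) for acoustic and 6 (8.33%) for visual brains, where all features gave 5.23%, 5.11% and 5.3%. Against blank contrast it was 0, 7 (9.72%) and 3 (4.17%) in the same order, where all features gave 4.54%, 4.42% and 4.66%. Between stimuli it was 2 (2.78%) for audiovisual against acoustic, 6 (8.33%) for audiovisual against visual and 7 (9.72%) for acoustic against visual, where all features gave 4.9%, 4.57% and 5.01%. Dark contrast against blank contrast gave 5 (6.94%), against 5.68% of all features, and the F test 8 (11.1%), against 4.74%.

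The following 2 were singled out after their values were seen. GLYCTK, the kinase that handles the glycerate left by fructose breakdown, had 4.72, 5.77 and 2.75 CPM under audiovisual stimuli, 3.38, 6.85 and 7.39 under acoustic, 3.43, 0.774 and 1.20 under visual, 9.10, 15.3 and 10.5 under dark contrast, and 3.49, 1.13 and 2.17 under blank contrast. It was highest in all 3 dark contrast libraries, opposite in direction to the first Khk feature, and visual against dark contrast gave a log2 fold change of -2.66 (unadjusted p = 0.000242, adjusted p = 0.737). SLC2A2, a transporter of glucose and fructose, had 22.5, 22.7 and 26.7 CPM under audiovisual stimuli, 19.6, 25.1 and 22.5 under acoustic, 20.7, 24.4 and 21.9 under visual, 13.7, 16.05 and 20.02 under dark contrast, and 20.2, 19.4 and 17.2 under blank contrast. Audiovisual lay above dark contrast without overlap, at a log2 fold change of 0.53 (SE 0.17, unadjusted p = 0.00765, adjusted p = 0.934). Audiovisual libraries also lay above all blank contrast ones, and visual libraries above all libraries of both contrast groups.

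The 5 named features whose log2 CPM followed the first Khk feature most closely over the 15 libraries were not enzymes of sugar metabolism. Hsf2, a heat shock transcription factor, had a Pearson r of 0.878 and a Spearman rho of 0.85. It averaged 28.9 ± 1.49 CPM under audiovisual, 26.1 ± 1.94 under acoustic and 24.3 ± 1.12 under visual stimuli, 19.1 ± 0.907 under dark contrast and 28.4 ± 3.37 under blank contrast (SD, n = 3 each). ZNF391 (r = 0.860), CLASRP (0.847), PCDHGB2 (0.846) and DUSP11 (0.842) followed. ZNF391 was very low, at 0.169 to 0.784 CPM. Without dark contrast libraries 1 and 2 the values of r were 0.763 for Hsf2 and 0.696 to 0.792 for the others. The values without these libraries used log2 CPM with no prior count, and those over 15 libraries a prior count of 2. The difference between them therefore mixes 2 measures. These 5 features have the highest r among the tested features with a gene name, not among all 42619 tested, and describe these libraries only.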

How the data were processed

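Brain RNA of 15 libraries (5 stimulus groups of 3) was read from 1 deposited table of features. Per the file headers it gives, for each library, estimated counts and FPKM that the authors made (aligner, assembler and counting tool: not given in the sources used here). Of the estimated counts 57.4% were whole numbers within 1e-06, so they were rounded for count tests. Annotation (Swiss-Prot, NR) came with the table; gene names are those of the closest entry in another species.

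A feature whose FPKM averaged 1 or more over the libraries was tested with edgeR 4.0.16 (R 4.3.3, TMM scaling, quasi-likelihood test, all 15 libraries in 1 fit with 10 residual degrees of freedom), with Benjamini-Hochberg adjustment over 42619 features and a threshold of 0.05. The script was tested on simulated data. CPM are TMM-scaled, and log2 CPM used a prior count of 2. No prior count was used for correlations between 2 features of the same enzyme or for those with libraries left out. The SE of a log2 fold change is its size, without sign, divided by the square root of the F statistic of its edgeR test. Correlations are descriptions without p. DESeq2 1.42.0 and limma 3.58.1 on log2(FPKM + 1) and log2(FPKM + 0.1) were alternatives, as were other filters, another scaling, fits of only 2 groups, a replicate block, sums per gene name and leaving out each library.

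The members, the related genes, the marker lists and the tests were chosen with earlier results of these data known. Named with all values were each Khk feature, the most abundant feature of each step by FPKM, members with an unadjusted p under 0.01, the member with the smallest p in each pair, and the 5 features most like Khk. Some features that this rule names are not reported here. Same-numbered libraries of different groups did not deviate together (30 pairs, r between -0.035 and 0.043), so the numbers do not pair them. Libraries within a group correlated at 0.933 to 0.942 and none was a duplicate. Low values such as those of Khk also carry counting error.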

Additional observations from a re-analysis of the deposited data

How the results depend on the processing

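With edgeR 0 members were called in each comparison, and this held under another scaling, both other filters on low values, fits of only the 2 groups compared, limma with either pseudocount and sums per gene name. DESeq2 called 1 member, Khk, in audiovisual, acoustic and visual against dark contrast, in dark contrast against blank contrast and in its likelihood ratio test over the 5 groups. It called 30, 35, 36, 38 and 206 of all features there. Leaving out 1 library gave 0 to 1 members for audiovisual against dark contrast, the 1 being Khk without audiovisual library 3, and 0 in every other comparison. Audiovisual library 3 holds the lowest audiovisual value of this Khk feature, so leaving it out selects on the value tested. With a replicate block the adjusted p of Khk for audiovisual against dark contrast was 0.230, and 0 members were called; the numbers do not pair the libraries. Sums per gene name with each of the 15 libraries left out in turn were added after the data were seen. They gave 0 to 1 members for audiovisual against dark contrast. The 1 was Khk without dark contrast library 2 (log2 fold change 2.71, adjusted p = 0.0188), which holds the highest dark contrast sum of Khk; without any other library the adjusted p was 0.667 to 0.983. That omission removes the library most unlike the rest in the very value tested, so it was read only as a sign of how much 1 library decides. The acoustic against blank contrast value of PFKL, -1.12 for its feature, was 0.0549 with sums per gene name. It was 0.179, 0.0849, 0.0647 and 0.155 with sums that left out acoustic 1, acoustic 2, blank contrast 1 and blank contrast 3. For the pkm feature sums with a library left out turned the sign in 4 cases, at 0.0392 without visual 1 and 0.0802 without blank contrast 2 for visual against blank contrast and at -0.0075 without audiovisual 2 and -0.0249 without visual 1 for audiovisual against visual. The sum had a median of 1171.5 CPM over the libraries, against a mean of 55.0 CPM for this feature. Its sign therefore cannot decide the direction of the feature. The summed level of the members without GAPDH was 6478, 6575, 6609, 6224 and 6359 FPKM in audiovisual, acoustic, visual, dark contrast and blank contrast brains. With GAPDH, and as a sum of CPM in place of FPKM, it was 13819, 13945, 13825, 13973 and 13558. Depth limits Khk, with 15.5 to 20.4 estimated counts in dark contrast libraries.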
